A study of Mus musculus with 9 samples.

Results

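The Id factors and the components of bone morphogenetic protein (BMP) signalling examined here were 10 genes, Id1, Id2, Id3, Id4, Bmpr1a, Bmpr1b, Bmpr2, Bmp4, Bmp6 and Smad1, of the 32287 gene identifiers in the single-cell count matrices. They were chosen by name as regulators of stem cell quiescence, and the choice set no threshold on expression. All 10 were found, and 9 of them passed the filter on low counts in at least one comparison. Bmp4 was the exception.

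BMP ligands bind a receptor pair made of a type I and a type II receptor kinase, which phosphorylates the receptor-regulated Smads. Smad1 and its relatives then enter the nucleus with Smad4 and switch on target genes, among which the Id genes are the classical examples. Id proteins have a helix-loop-helix domain without the basic DNA-binding part, so that they bind E proteins and keep them from pairing with proneural factors. In the ventricular-subventricular zone (vSVZ) BMP signalling and high Id levels are known as marks of quiescent, astrocyte-like neural stem cells (NSCs), and their loss accompanies activation and neuronal differentiation.

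Single cells were profiled from male TiCY mice, in which the Tlx (Nr2e1) promoter drives a tamoxifen-inducible Cre recombinase that turns on eYFP in Tlx-expressing stem cells and, by inheritance, in their progeny. The strain name of all 4 groups also holds the Fas allele Fastm1Cgn. WT young mice were 16 weeks old, with tamoxifen at 10 weeks and a chase of 6 weeks, and WT old mice were 80 weeks old, with tamoxifen at 71 weeks and a chase of 9 weeks. KO mice lacked both interferon receptors (Ifnar1tm1Agt, Ifngr1tm1Agt), were 16 weeks (KO young, tamoxifen at 7 weeks) or 92 to 105 weeks old (KO old, tamoxifen at 85 and 98 weeks) and were chased for 9 weeks. The barcode suffixes of both old libraries give one common age in months, which differs from these ages in weeks. In each group 2 mice were pooled into 1 reaction, so that a group and its reaction cannot be told apart, and hashtag antibodies marked the mouse and the tissue: vSVZ, or the rest of the brain sampled (RoB), which was striatum, rostral migratory stream and olfactory bulb together. Cells bearing CD45, Ter119 or O4 were excluded by sorting, eYFP+ and GLAST+ cells were taken from the vSVZ, and eYFP+ cells with eYFP- PSANCAM-low cells from the RoB.

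After filtering, 18055 cells remained, with 2396 to 6461 cells and a median of 5026 to 7393 unique molecular identifiers (UMIs) per cell in a library. A mouse and tissue could be assigned to 20.5% to 60.4% of the cells of a library, and 30 cell barcodes occurred in more than one library. Classes were named from marker lists without use of the 10 genes: 4813 cells were quiescent NSC-like, a class whose markers are shared with parenchymal astrocytes, 1412 activated NSC-like, 1004 transit-amplifying progenitor (TAP)-like, 6280 neuroblast-like and 2023 olfactory ensheathing glia-like. A cluster of 944 cells led by Thbs4 and Ecel1 carried quiescent markers but was not named. In it 50.4% of cells had an eYFP UMI, against 5.95% in the largest quiescent cluster and 4.86% in microglia-like cells. The last are not among the cells in which the Tlx promoter should turn eYFP on. Levels are given as counts per 1000000 UMIs (CPM) of the summed cells, and where the 4 libraries are listed the WT pair comes first and the KO pair second, each with the young library before the old one. Because the libraries read 3' ends and the matrices may include intronic reads, levels are compared between cells and never between genes.

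The upstream sequences of 3 Id genes are shown because these genes were high together in the quiescent cells and differed together between the tissues below. Each runs from 250 bases before to 50 bases after a RefSeq transcription start in GRCm38.p6, written 5′ to 3′ on the gene's strand, with the Smad-binding letters GTCT (on either strand) and the GC-rich element GGCGCC, which BMP Smads bind, in capitals. Id2 lies at chr12:25093799-25097140 on the minus strand, Id3 at chr4:136143497-136145755 on the plus strand and Id4 at chr13:48261228-48266026 on the plus strand. The windows are chr12:25096043-25096342, chr4:136143572-136143871 and chr13:48260866-48261165.
Id2: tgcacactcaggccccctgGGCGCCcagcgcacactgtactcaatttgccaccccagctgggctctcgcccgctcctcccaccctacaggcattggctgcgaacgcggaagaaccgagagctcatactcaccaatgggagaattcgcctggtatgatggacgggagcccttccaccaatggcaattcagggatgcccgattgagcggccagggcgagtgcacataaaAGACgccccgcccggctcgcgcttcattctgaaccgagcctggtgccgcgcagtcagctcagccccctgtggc
Id3: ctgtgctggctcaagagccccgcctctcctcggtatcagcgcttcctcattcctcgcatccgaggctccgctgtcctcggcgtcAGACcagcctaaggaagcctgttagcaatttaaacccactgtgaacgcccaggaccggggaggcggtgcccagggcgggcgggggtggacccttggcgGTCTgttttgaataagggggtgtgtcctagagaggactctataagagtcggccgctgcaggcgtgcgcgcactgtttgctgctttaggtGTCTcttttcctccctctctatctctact
Id4: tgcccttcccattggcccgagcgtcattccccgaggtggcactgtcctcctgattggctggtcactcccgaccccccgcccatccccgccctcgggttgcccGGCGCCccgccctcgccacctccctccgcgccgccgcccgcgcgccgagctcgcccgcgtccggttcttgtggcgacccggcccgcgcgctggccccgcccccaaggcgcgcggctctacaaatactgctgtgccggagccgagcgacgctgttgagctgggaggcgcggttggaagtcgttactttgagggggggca
The Id2 window held 1 GTCT match on either strand and 1 GGCGCC, the Id3 window 3 GTCT matches and no GGCGCC, and the Id4 window no GTCT match and 1 GGCGCC. The GC-rich element occurred in the windows of Id2, Id4, Bmpr1a and Bmpr2, and in 11.9% of the 32851 promoter windows of the same length, whereas GTCT occurred in 88.0% of them. The E-box letters CANNTG, which E proteins and their partners bind, occurred in 72.3% of all windows, and 1 match was found for Id2 and none for Id3 or Id4. Of the 10 genes, 9 had an entry in the RefSeq table, and Id1 (chr2:152736251-152737410, plus strand) is named only.

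The 4 Id genes were all high in quiescent NSC-like cells and lower in TAP-like and neuroblast-like cells, and they differed in where else they were found. The level of Id2 in quiescent NSC-like cells was 1013, 1282, 1165 and 1067 CPM. It was 512 to 875 in the Thbs4 and Ecel1 cluster, 63.0 to 274 in activated NSC-like cells, 26.4 to 50.6 in TAP-like cells and 14.3 to 26.2 in neuroblast-like cells. These 5 ranges did not overlap, but the lowest TAP-like level rested on 11 UMIs in WT old, and its exact 95% Poisson interval, which covers counting error only, reached into the neuroblast-like range (13.2 to 47.2). Above the TAP-like range stood oligodendrocyte precursor-like (141 to 341), microglia-like (89.5 to 411), endothelial-like (60.6 to 311) and ensheathing glia-like cells (70.3 to 157). Oligodendrocyte-like cells held 7.4 to 7.9. An unnamed cluster led by Ptgds, described below, held 297 to 636.

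Id4 fell less than the other Id genes between quiescent and neuroblast-like cells as measured, before any allowance for free RNA. Its level was 995, 1118, 902 and 1046 CPM in quiescent NSC-like cells. The Thbs4 and Ecel1 cluster stood above all of these with 1178 to 1277, and activated NSC-like cells below with 218 to 456. TAP-like cells at 122 to 178 and neuroblast-like cells at 165 to 217 overlapped, so that no further fall was seen between them, and neuron-like cells held 7.5 to 40.8. Near-empty barcodes, which hold free RNA, carried Id4 at 254 to 354, above both the TAP-like and the neuroblast-like level. Outside the lineage, ensheathing glia-like cells held 25.9 to 50.9 and endothelial-like cells 22.7 to 545. An unnamed cluster of 188 cells led by Ptgds, with Pdgfrb among its top genes, held 569 to 826. Its cells were shallow, with a median depth of 0.306 of their library's median. Its best marker list, of fibroblasts, had 1 of 5 markers raised, and the quiescent NSC-like list came second. Whether it lies outside the lineage was not tested.

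Id3 and Id1 were low in neuroblast-like cells and had a second site of expression outside the lineage. Id3 stood at 307, 291, 298 and 286 CPM in quiescent NSC-like cells and at 455 to 808 in the Thbs4 and Ecel1 cluster. It fell to 28.0 to 205 in activated NSC-like cells, and at most 2.8 was found in TAP-like and 2.1 in neuroblast-like cells. In ensheathing glia-like cells, the glia that wrap olfactory axons, Id3 was at 312 to 382, above the range of the quiescent class. Endothelial-like cells, of which a library held 14 to 43, had 712 to 912.

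Id1 was highest in endothelial-like cells, with 1570 to 2189 CPM. Its level in quiescent NSC-like cells was 125, 134, 129 and 121, and the exact 95% Poisson intervals of all 4 libraries overlapped. Unlike Id2, Id3 and Id4, it was not lower in all activated NSC-like cells: the level there was 73.3 and 137 in the young WT and KO libraries, and 249 and 213 in the old ones. It was 26.4 to 37.7 in TAP-like cells and 1.6 to 2.4 in neuroblast-like cells.

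**Figure D1:**
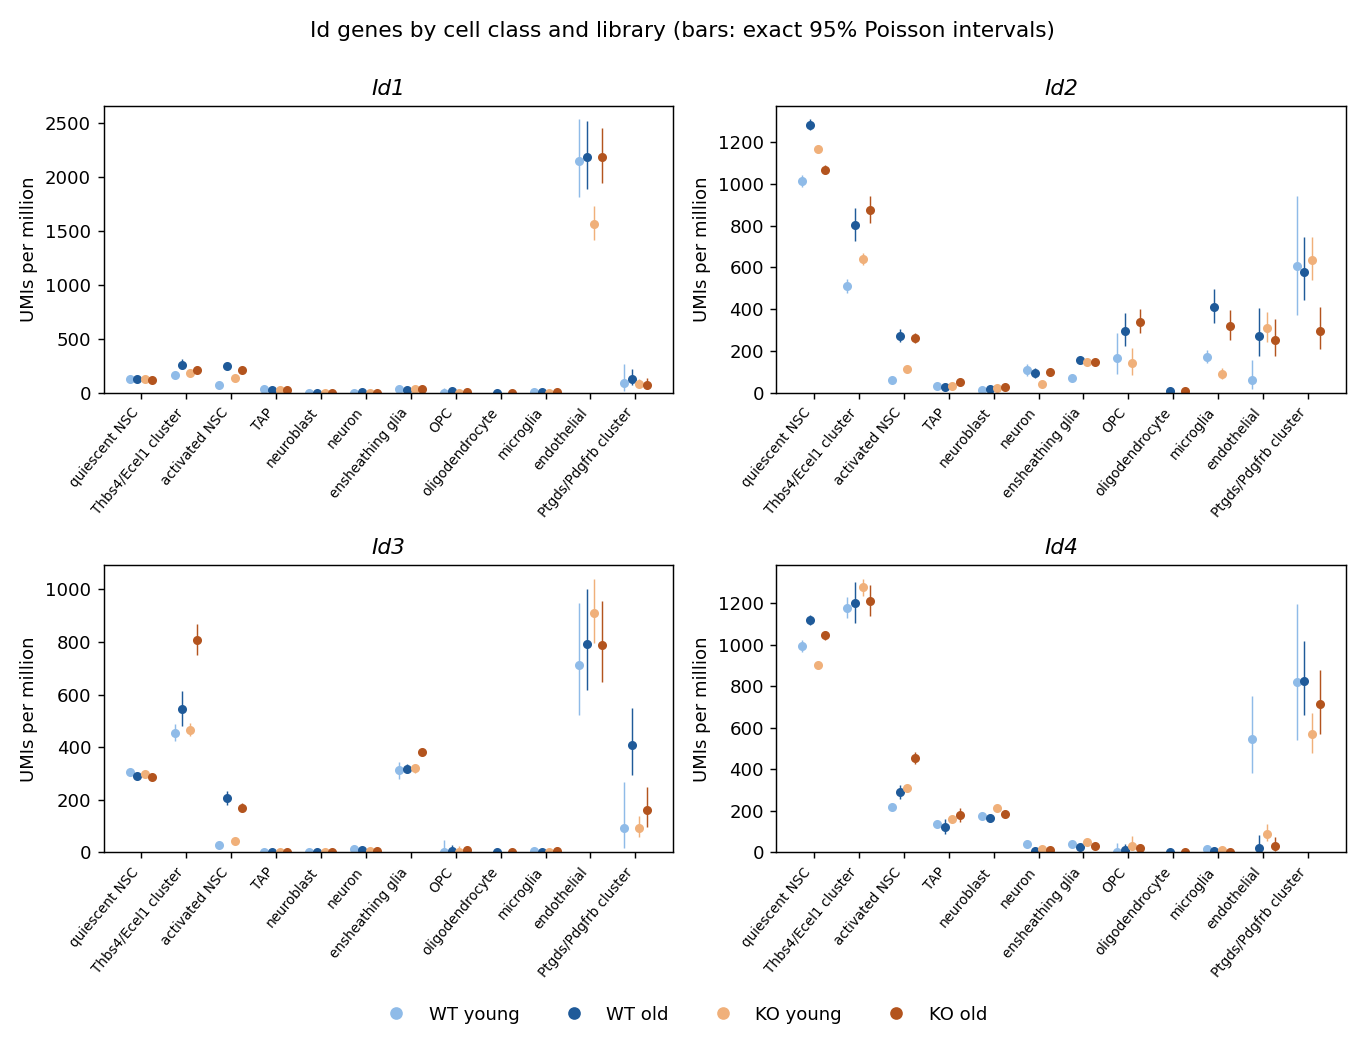
Levels of the 4 Id genes (CPM, linear axis from 0) by cell class, with 1 point per library of at least 10 cells and exact 95% Poisson intervals. Id2 and Id4 were highest in the quiescent NSC-like cells and the Thbs4 and Ecel1 cluster, Id3 also in ensheathing glia-like and endothelial-like cells, and Id1 in endothelial-like cells (1570 to 2189). For Id2 the Ptgds and Pdgfrb cluster (297 to 636) overlapped the Thbs4 and Ecel1 cluster (512 to 875).

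The same order was found cell by cell at equal depth. With each cell thinned to 1000 UMIs, 56.6% to 62.9% of quiescent NSC-like cells of a library had an Id2 UMI, against 1.42% to 2.87% of neuroblast-like cells and 14% and 7.53% of the microglia-like cells of WT young and KO young. For Id4 these shares were 55.1% to 61.3% in quiescent and 12.8% to 17.2% in neuroblast-like cells, and 2% and 1.08% in the same microglia-like cells. None of the 4 Id genes was seen in 11.99% to 16.7% of quiescent and 80.6% to 85.4% of neuroblast-like cells at this depth. As a mean log2 ratio over the 4 libraries with a pseudocount of 5 CPM, quiescent over neuroblast-like cells was 5.50 for Id2, 5.58 for Id3, 4.23 for Id1 and 2.43 for Id4. Near-empty barcodes carried Id2 at 125 to 311 CPM, likewise above the level in neuroblast-like cells. With the near-empty level of each library subtracted, the ratios were 7.5 for Id2, 5.40 for Id3, 3.96 for Id1 and 7.11 for Id4, so that the order of the genes changed. All 4 then stood at 0 in neuroblast-like cells, and the pseudocount set the lower end of these ratios. The whole near-empty level was subtracted, which was more than neuroblast-like cells held. Id3, for one, was at 55.2 to 116 CPM in near-empty barcodes and at most 2.1 in neuroblast-like cells. The share of free RNA in a cell was not measured, so the subtracted ratios give no ranking of the genes.

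Of the 3 receptors, Bmpr1b alone fell steeply from quiescent to neuroblast-like cells, as the Id genes did. Outside the lineage it did not follow Id1 and Id3. Ensheathing glia-like cells, high in Id3, held Bmpr1b at 1.7 to 6.7 CPM. Endothelial-like cells, high in Id1 and Id3, held it at 0 to 4.1. Bmpr1b (chr3:141837136-142169425, minus strand), a type I receptor, was at 128, 142, 138 and 150 CPM in quiescent NSC-like cells, and at 86.5 to 168 in the Thbs4 and Ecel1 cluster. It was at 13.1 to 58.9 in activated NSC-like cells, 2.3 to 2.8 in TAP-like cells and 0 to 1.2 in neuroblast-like cells. The Ptgds and Pdgfrb cluster held 75.9 to 183, a range that spans that of the quiescent class. The other type I receptor of the set, Bmpr1a (chr14:34410734-34503341, minus strand), varied less, from 74.0 to 96.0 in quiescent through 45.9 to 79.1 in TAP-like to 35.8 to 53.9 in neuroblast-like cells, with overlaps between neighbouring classes. Bmpr2 (chr1:59763400-59879014, plus strand), the type II receptor, went the other way. It was higher in neuroblast-like cells, at 142 to 213, than in quiescent NSC-like cells, at 74.8 to 102, and highest in endothelial-like cells at 394 to 736. Near-empty barcodes held Bmpr2 at 89.9 to 144, reaching above the quiescent range, and Bmpr1a at 45.7 to 79.6, reaching above the neuroblast-like range. The part of free RNA in these class differences was not tested.

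The ligand genes were highest in cells that were not named as part of the stem cell lineage. Bmp6 (chr13:38345107-38500302, plus strand) was at 119 to 124 CPM in ensheathing glia-like cells in all 4 libraries, at 10.4 to 17.8 in quiescent NSC-like cells, and at 0 to 0.9 in activated and 0 to 0.3 in neuroblast-like cells. Near-empty barcodes held 8.0 and 4.6 (1 UMI) in the young WT and KO libraries and 32.0 and 28.3 in the old ones, so that quiescent cells lay above free RNA in both young libraries and below it in both old ones. The Ptgds and Pdgfrb cluster held 0 to 104, from 27 UMIs. Bmp4 (chr14:46383520-46390669, minus strand) gave 1 UMI in all quiescent NSC-like cells and none in activated NSC-like or TAP-like cells, and it was at 0.9 to 1.6 in neuroblast-like cells. It was at 12.98 to 33.5 in oligodendrocyte precursor (OPC)-like cells, of which there were 82, from 16 UMIs, and at 0 to 94.9 in the Ptgds and Pdgfrb cluster, from 28 UMIs. Smad1 (chr8:79338395-79399518, minus strand), the receptor-regulated transducer, was lower in quiescent cells, at 32.4 to 38.2, than in activated cells, at 42.1 to 68.2, and neuroblast-like cells, at 43.4 to 60.3. It was lower still in ensheathing glia-like cells, at 19.98 to 32.6, with an overlap at the edge of the ranges, and stood at 50.8 to 94.9 in microglia-like cells. Near-empty barcodes held Smad1 at 28.3 to 55.2, a range that spans the quiescent level, and the part of free RNA in these differences was not tested.

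**Figure D2:**
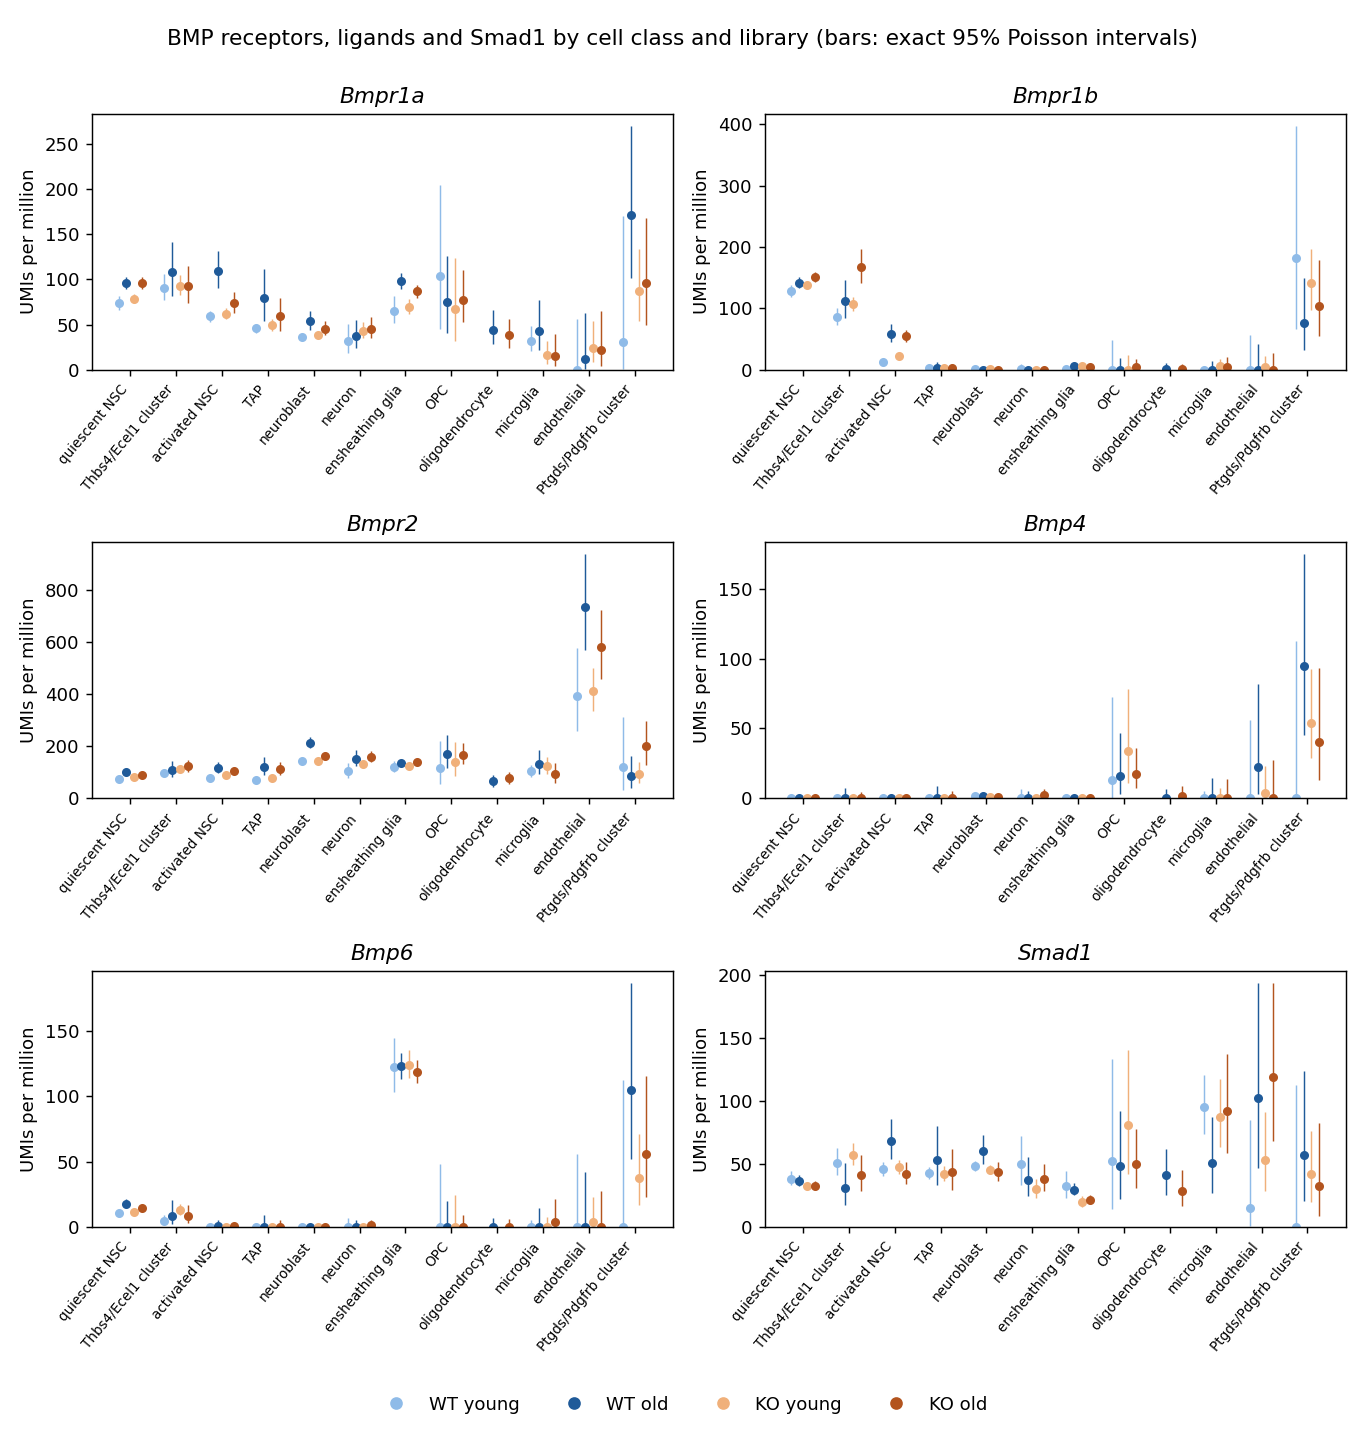
Levels of the receptors Bmpr1a, Bmpr1b and Bmpr2, the ligands Bmp4 and Bmp6 and the transducer Smad1 (CPM, linear axes from 0, scaled per gene) by class, with 1 point per library and exact 95% Poisson intervals. Bmpr1b was high in quiescent cells, the Thbs4 and Ecel1 cluster and the Ptgds and Pdgfrb cluster (75.9 to 183), Bmp6 in ensheathing glia-like cells (119 to 124) and Bmpr2 in endothelial-like cells.

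Of the other 41 genes of a BMP pathway list, 22 reached 20 CPM in at least one class. Among ligands, Bmp7 was at 260 to 288 and Bmp5 at 22.4 to 26.7 in ensheathing glia-like cells, where Bmp6 was also highest. Quiescent NSC-like cells held the highest level of the coreceptor gene Rgma, at 162 to 217, and of the antagonist genes Htra1, at 540 to 647, Nog (Noggin, which binds BMPs outside the cell), at 32.7 to 39.2, and Chrdl1, at 26.0 to 45.1. Neuroblast-like cells held the highest level of Acvr2b, at 106 to 111, Smad4, at 159 to 173, and the decoy receptor gene Bambi, at 72.3 to 96.4. Among the helix-loop-helix partners, Hes5, a Notch target, was at 973 to 1251 in quiescent cells, and the E protein gene Tcf4 was highest in neuroblast-like cells, at 2121 to 2710.

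Genes whose pattern was closest to each member were sought over 31 sums of a class in a library, from 9 classes, among 6963 genes. Only sums of at least 50 cells were used, so that endothelial-like and OPC-like cells did not enter, and the Ptgds and Pdgfrb cluster was left out. These sums share libraries, depth and the clustering, and the correlations are descriptions. Bmpr1b was nearest to Crym, Cldn10 and Slc1a2 (Pearson's r of 0.98 each), of which Cldn10 and Slc1a2 were markers of the class. Id3 was nearest to Fxyd1 (0.98), Id2 to Cbr3 (0.95), Id1 to Prdm16 (0.95) and Bmp6 to Vstm4 (0.98). The highest value was 0.90 for Bmpr1a (with Cc2d2a), 0.84 for Bmpr2 (with Helz) and 0.82 for Smad1 (with Ivns1abp). Within the set, Bmpr1b correlated at 0.88 with Id2, 0.87 with Id1, 0.81 with Id4 and 0.79 with Id3. Bmpr1a correlated at 0.84 with Id3, 0.83 with Id1, 0.67 with Id2 and 0.65 with Id4.

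The quiescent class was not uniform in its Id genes. Its 3 largest clusters, led by Cldn10 or Crym, had Id1 at 139 to 153 CPM, Id2 at 1136 to 1260, Id3 at 271 to 374 and Id4 at 1017 to 1115. A cluster of 539 cells led by Igfbp2 was lower in all of them, with Id1 at 89.1, Id2 at 1047, Id3 at 192 and Id4 at 807. The cluster of 464 cells led by Agt and Itih3, which had Nkx6-2 among its top genes and is called the Nkx6-2 cluster, had Id1 at 47.9, Id2 at 903, Id3 at 101 and Id4 at 453. A cluster of 146 cells led by Islr had Id1 at 5.0, Id2 at 246 and Id3 at 53.4, but Id4 at 1352, the highest of the 6 clusters. Bmpr1b remained at 97.8 to 157 in all 6 quiescent clusters.

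The 2 activated clusters differed as well. The cluster of 515 cells that had Nptx2 and Egfr among its top genes, called the Nptx2 and Egfr cluster, had Id1 at 307, Id2 at 287, Id3 at 183, Id4 at 486 and Bmpr1b at 62.6 CPM. In the cluster of 897 cells led by replication genes such as Hells, the levels were 40.8, 43.1, 6.6, 196 and 7.4 in that order. These differences between clusters carry no test, since the clusters were made from the same cells.

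**Figure D3:**
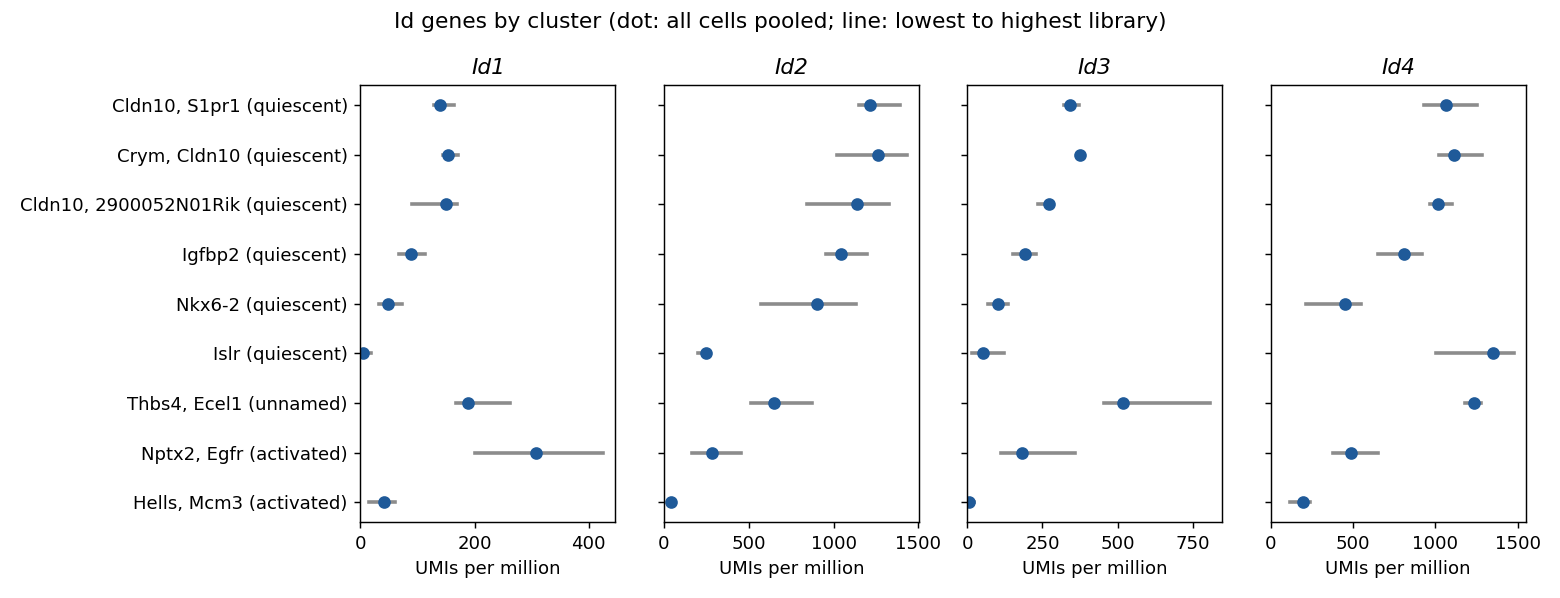
Id1 to Id4 levels (CPM) by cluster of the quiescent and activated classes and in the Thbs4 and Ecel1 cluster, with a dot for all cells of the cluster and a line from the lowest to the highest library of at least 20 cells. The Islr cluster has the lowest Id1, at 5.0, and the highest Id4, at 1352, and the Nptx2 and Egfr cluster the highest Id1, at 307.

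Quiescent NSC-like cells of the vSVZ, the stem cell niche, were compared with those of the RoB within each of the 8 mice. The tissues were also sorted differently, with GLAST+ cells taken only from the vSVZ and eYFP- PSANCAM-low cells only from the RoB. Tissue and sorting therefore cannot be told apart here. All 4 Id genes were higher in the vSVZ. Id2 was at 948 to 1385 CPM (median 1196) in the vSVZ and at 751 to 1090 (median 992) in the RoB. It was higher in the vSVZ in 8 of 8 mice, by 0.30 ± 0.06 on the log2 scale (SE, adjusted p = 4.2e-05 by edgeR's quasi-likelihood test with the mouse as a block and Benjamini-Hochberg adjustment).

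Id3 was at 267 to 382 (median 313) in the vSVZ against 126 to 311 (median 215) in the RoB, higher in 8 of 8 mice, with a log2 difference of 0.54 ± 0.09 (adjusted p = 8.5e-06, edgeR). Id4 was at 892 to 1286 against 662 to 1105, higher in 7 of 8 mice, with a log2 difference of 0.34 ± 0.06 (adjusted p = 2.7e-05, edgeR). The exception was mouse 2 of KO old. Id1 was at 105 to 163 against 71.3 to 111, with a log2 difference of 0.54 ± 0.11 (adjusted p = 0.00026, edgeR), but it was higher in 5 of 8 mice only, and in the other 3, one each of WT young, KO young and KO old, the log2 ratio of vSVZ over RoB was -0.03, -0.05 and -0.06. The ranges of the tissues overlapped between mice for each of the 4 genes. In this comparison 997 of 9262 genes, 10.8%, were called, against 4 of the 9 members tested.

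The receptors, Bmp6 and Smad1 were not called. Bmpr1b had a log2 difference of 0.21 (adjusted p = 0.15), Bmp6 of 0.71 (adjusted p = 0.1, higher in the vSVZ in 8 of 8 mice), Bmpr2 of 0.02, Smad1 of 0.04 and Bmpr1a of -0.11, all by edgeR with a threshold of 0.05. In the pathway list 1 of 18 genes tested, Nog, was higher in the vSVZ (0.76 ± 0.18), and 4 antagonist genes were lower: Chrdl1 (-2.07 ± 0.17), Nbl1 (-1.25), Bambi (-1.19) and Fstl1 (-0.83). The median log2 difference of the list was -0.06, against -0.00 over all genes. Among the helix-loop-helix partners, Hes5 (0.55 ± 0.06) and Tcf4 (0.50) were higher, and Olig2 (-2.69) and Olig1 (-2.03) were lower.

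The tissue difference of the Id genes moved with the clusters that made up the class. In the RoB the Igfbp2 cluster made up 21.2% to 43.2% of a mouse's quiescent cells and the Islr cluster 7.27% to 28.1%, whereas in the vSVZ they made up at most 6.03% and 0.862%. With both clusters left out, an alternative chosen after seeing the data, Id1 (0.13, adjusted p = 0.75), Id2 (-0.01, adjusted p = 0.98) and Id3 (0.13, adjusted p = 0.60) were no longer called by edgeR. Id4 was, at 0.42 ± 0.07 (adjusted p = 2.2e-05). With the Nkx6-2 cluster also left out, 7 mice had enough cells in both tissues, none of the 4 was called, at 0.02, -0.00, -0.14 and 0.14, and 97 genes were called in all. The summed level of the 9 quiescent markers was likewise higher in the vSVZ, at 22504 to 25918 CPM, than in the RoB, at 18205 to 21342, without overlap. With the Thbs4 and Ecel1 cluster counted in the class the 4 calls remained, as they did with any 1 mouse left out.

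**Figure D4:**
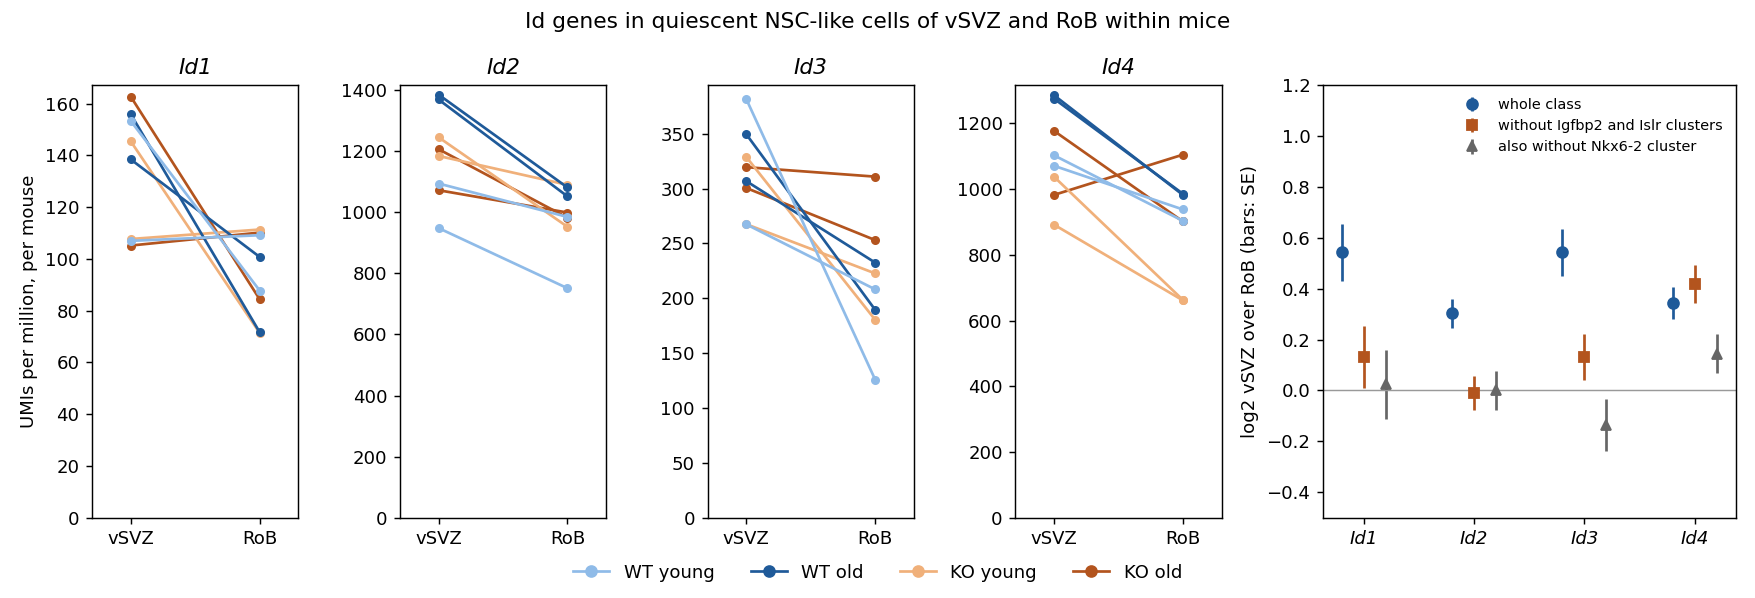
Id1 to Id4 in quiescent NSC-like cells of vSVZ and RoB, with 1 line per mouse coloured by group (CPM, from 0), and on the right the fitted log2 ratio of vSVZ over RoB with its SE. Most lines fall from vSVZ to RoB, and the fitted differences shrink towards 0 without the Igfbp2, Islr and Nkx6-2 clusters.

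Age and genotype were compared with mice as replicates, 2 per group, within a class and a tissue. In the vSVZ quiescent cells Id2 rose with age in WT mice. Its levels were 1094 and 948 CPM in the mice of WT young and 1385 and 1369 in those of WT old. The log2 change was 0.38 ± 0.09 (adjusted p = 0.0082, edgeR). In this contrast 384 of 9408 genes, 4.08%, were called, and Id2 was the single one of 9 members. In the KO mice the age groups overlapped, with 1207 and 1072 in the old against 1185 and 1246 in the young, and the difference between the age changes was -0.49 ± 0.12 (adjusted p = 0.056, edgeR), above the threshold. The call was lost on leaving out WT young mouse 2 (0.31, adjusted p = 0.17), WT old mouse 1 (adjusted p = 0.065) or WT old mouse 2 (adjusted p = 0.087). Free RNA moved with it, as near-empty barcodes held Id2 at 125 CPM in WT young and 311 in WT old. The part of this in the change was not tested.

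The other members were not called in the vSVZ quiescent cells. Age in KO called 1.73% of genes, genotype in young 0.712%, genotype in old 0.138% and the interaction of age and genotype 0.308%, with no member among them. Bmpr2 (0.67 ± 0.23, adjusted p = 0.091) and Bmpr1a (0.47 ± 0.19, adjusted p = 0.16, edgeR) had the smallest adjusted p after Id2 for age in WT. Of the 19 pathway genes and 11 partners tested, none was called in any of these 5 contrasts. In the Thbs4 and Ecel1 cluster of the vSVZ, which was analysed after seeing the data, no member was called either, against backgrounds of 0.68% and 0.476% for age in WT and KO, 0.306% and 0.102% for genotype in young and old, and 0.051% for the interaction. Id2 was there at 538 and 620 in WT young and 770 and 999 in WT old (log2 change 0.64 ± 0.17, adjusted p = 0.06, edgeR).

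In the RoB quiescent cells Id4, 1 of 8 members tested, rose with age in KO mice. It was at 902 and 1105 CPM in the old and 662 and 663 in the young mice (log2 change 0.60 ± 0.14, adjusted p = 0.035, edgeR). The mice of WT young, at 904 and 938, and of WT old, at 983 and 986, lay within the range of the old KO mice. The contrast called 12 of 6958 genes, 0.172%, among them also Hes1 (1.80 ± 0.40). The call was lost without KO young mouse 1 (adjusted p = 0.13), KO young mouse 2 (0.063), KO old mouse 2 (0.45, adjusted p = 0.66), WT old mouse 1 (0.059) or WT old mouse 2 (0.0501), by DESeq2 (adjusted p = 0.35) and without the Nkx6-2 cluster (0.44, adjusted p = 0.50). No member was called for age in WT (0.891% of genes), genotype in young (0.675%), genotype in old (0.0575%) or the interaction (0.216%).

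In activated NSC-like cells, where 7 mice had enough cells, 3 of the 8 members tested rose with age in KO mice. Id2 was at 393 and 381 CPM in old KO mice, against 217 and 101 in young ones (log2 change 1.31 ± 0.29, adjusted p = 0.012, edgeR). Id3 went from 79.9 and 81.2 to 139 and 346 (1.63 ± 0.36, adjusted p = 0.013, edgeR), and Bmpr1b from 22.8 in both mice to 72.5 and 71.6 (1.66 ± 0.39, adjusted p = 0.023, edgeR). In this contrast 113 of 7316 genes, 1.54%, were called. The single WT old mouse with enough cells, at 368, 338 and 80.8, lay near or within the range of KO old. The WT young mice, at 79.3 and 184, 35.0 and 110, and 18.7 and 29.7, lay below it for all 3 genes.

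In the same contrast Olig2 (2.94 ± 0.38), Htra1 (2.72), Olig1 (1.88), Rgma (1.36) and Hes5 (1.22 ± 0.22) were also higher. What moved with these changes was the make-up of the class: the Nptx2 and Egfr cluster made up 71.0% and 80.0% of activated cells in the old KO mice, against 48.3% and 41.9% in the young. The 9 quiescent markers summed to 7240 and 8141 CPM in the old and to 3933 and 2880 in the young KO mice. Within that cluster alone, an alternative chosen after seeing the data, Id2 (1.01, adjusted p = 0.077), Id3 (1.18, adjusted p = 0.077) and Bmpr1b (1.13, adjusted p = 0.39) kept their direction but were not called by edgeR. Without KO old mouse 2 none of the 3 was called and Id3 was at 0.81 (adjusted p = 0.69), without KO young mouse 2 Id2 (0.85) and Bmpr1b were lost, without KO old mouse 1 also Id2 and Bmpr1b, and DESeq2 called none. Genotype in young called 0.15% of genes and no member. Id1 was closest there, at 1.04 ± 0.25 (adjusted p = 0.096, edgeR), and in the Nptx2 and Egfr cluster alone it was called, at 1.31 (adjusted p = 0.021, edgeR).

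In ensheathing glia-like cells Id2, 1 of 8 members tested, rose with age in WT mice. It went from 51.4 and 90.5 CPM in WT young to 153 and 152 in WT old (log2 change 1.05 ± 0.27, adjusted p = 0.049, edgeR, with 1.99% of 10083 genes called). The KO young mice, at 132 and 153, were already at that level, and the KO old mice stood at 103 and 167. The call was lost when any of the 2 WT young, 2 WT old or 2 KO young mice was left out (adjusted p of 0.065 to 0.27), and the near-empty level of Id2 given above moved the same way. No member was called for age in KO (0.278%), where the antagonist gene Chrdl1 rose (1.82 ± 0.34), for genotype in young (0.575%) or in old (0.387%). The interaction called no gene at all (0%), with 1001 genes at an unadjusted p under 0.05 by edgeR, and its Id2 estimate was -1.09 ± 0.33 (adjusted p = 0.28).

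In neuroblast-like cells none of the 5 members tested was called, for age in WT (2.83% of genes), age in KO (0.313%), genotype in young (1.24%), genotype in old (0.0447%) or the interaction (0.447%). Tcf4 was higher with age in WT (0.46 ± 0.07, adjusted p = 7.6e-06) and in KO young against WT young (0.32 ± 0.07, adjusted p = 0.0039, edgeR). Genotype in young microglia-like cells called 0.573% of genes and no member, with Id2 at -0.91 ± 0.31 (adjusted p = 0.27, edgeR). Endothelial-like and oligodendrocyte-like classes had too few cells per mouse for these tests. TAP-like, neuron-like and the remaining classes were not summed per mouse and were not tested.

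**Figure D5:**
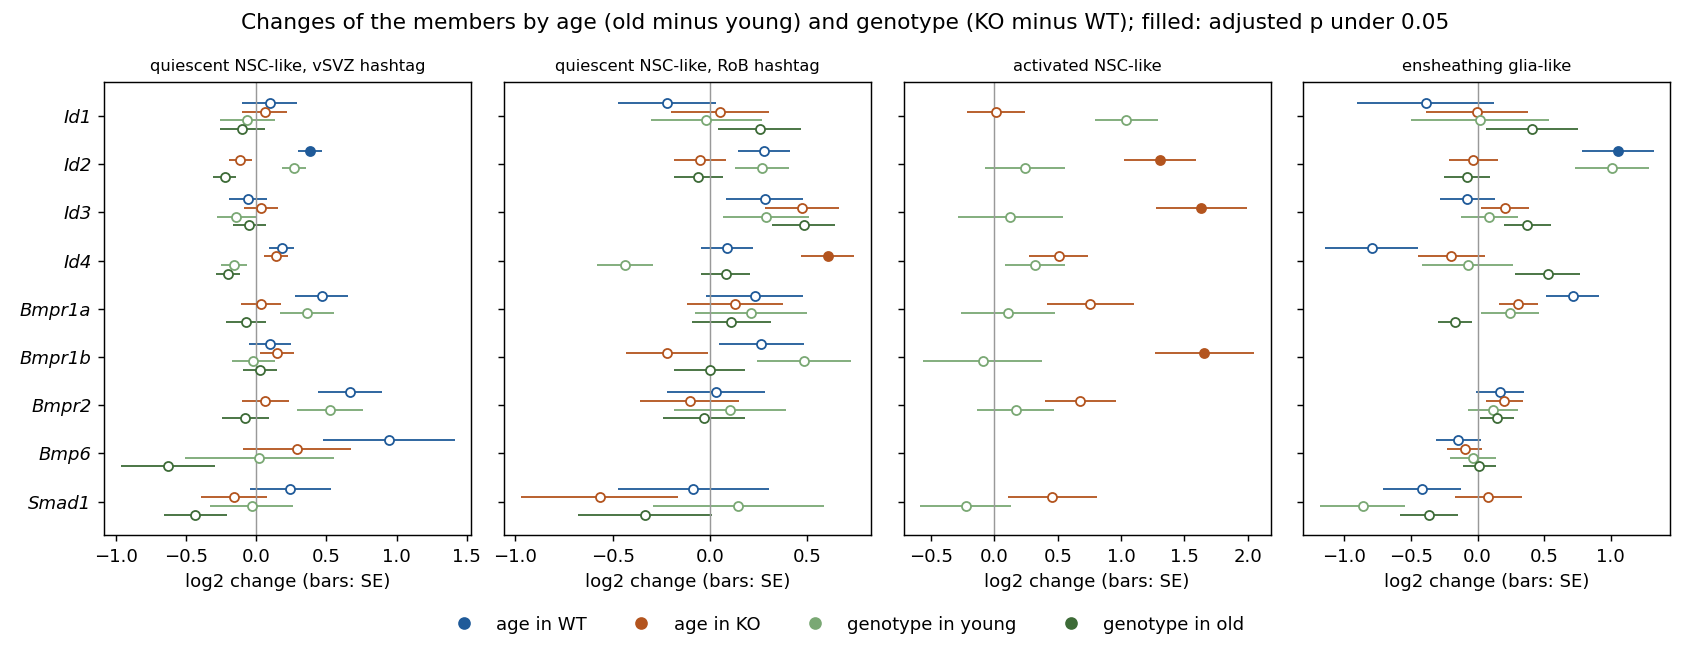
Fitted log2 changes with SE for 9 of the 10 genes by age (old minus young, in WT and KO) and genotype (KO minus WT, in young and old), in 4 classes, with filled points for an adjusted p under 0.05 and no point where a gene or contrast was not tested. The filled points are Id2 for age in WT in vSVZ quiescent and ensheathing glia-like cells, Id4 for age in KO in RoB quiescent cells, and Id2, Id3 and Bmpr1b for age in KO in activated cells.

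The reporter allowed a comparison within libraries between cells with and without an eYFP UMI. Among quiescent NSC-like cells, 14 of 10926 genes (0.128%) were called and no member was. Id2 was at 886, 1194, 1077 and 1067 CPM in cells with eYFP and at 1031, 1286, 1174 and 1066 in cells without. An eYFP UMI was found in 3.88% to 10.2% of cells of a quiescent cluster, against the 4.86% of microglia-like cells given above. With the Thbs4 and Ecel1 cluster added after seeing the data, 1600 of 11787 genes (13.6%) were called, and Id2 was lower in cells with eYFP, by -0.36 ± 0.10 on the log2 scale (adjusted p = 0.023, edgeR).

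The Id2 levels were then 652 with against 953 without eYFP in WT young, 787 against 1127 in KO young, 1185 against 1256 in WT old, and 1067 against 1049 in KO old. Id2 was lower in cells with eYFP in 3 of 4 libraries, and the call was lost without WT young (-0.28, adjusted p = 0.17) or KO young (-0.26, adjusted p = 0.34). Adding the cluster raised the cells with eYFP from 92 to 283, from 41 to 49, from 132 to 365 and from 70 to 114 in the 4 libraries, and Id2 in the cluster was below the quiescent class in each library. In this comparison 6 of 23 pathway genes were called, with Bmp7 (-1.24), Chrdl1 (-1.04), Nog (-0.82) and Htra1 (-0.78) lower and Bmper (0.70) and Smad4 (0.32) higher in cells with eYFP. Among the partners, Hes6 (0.45) was higher, and Olig1 (-1.10), Olig2 (-0.94) and Hey1 (-0.65) were lower.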

How the data were processed

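Droplet libraries (10x 3' chemistry) were processed by the authors with an index-hopping filter and kallisto and bustools against GRCm38, and Scanpy 1.6.0 is named in the submitters' processing notes. The authors deposited UMI count matrices and hashtag count tables per library. Whether spliced and unspliced counts were combined is not given in the sources used here, and intronic reads may enter long genes.

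Barcodes were kept at 1000 to 20000 UMIs, 100 to 6000 genes and less than 10% of UMIs from mitochondria, doublets predicted per library by scrublet (27 to 177) were removed, and 2000 variable genes, chosen without the members, the pathway lists, mitochondrial genes, the transgene and the study's interferon-response gene list, 50 components and Leiden clustering (resolution 1) gave clusters in Scanpy 1.11.5. A cluster of at least 50 cells took the name of its best-scoring marker list when at least 3 markers and 50% of that list were raised by over 1 log2 unit against the median cluster and present in 10% or more of its cells, unless markers of another list led it. Each library's hashtag counts were assigned by a multinomial mixture of 4 tags and a noise component started from the near-empty barcodes. The members and lists were chosen with earlier results of these data known. Named genes are the 10 members everywhere and the list genes past the test. Free RNA was measured in barcodes of 5 to under 100 UMIs.

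Counts were summed per mouse and class (at least 20 cells), and by tissue as well for the tissue fit. For the eYFP fit they were summed per library and eYFP status. The sums were tested in edgeR 4.0.16 (R 4.3.3) by quasi-likelihood F test with filterByExpr and TMM. One fit was made per class. The tissue fit had the mouse as a block, since vSVZ and RoB cells of a mouse share a hashtag number and animal, and the eYFP fit had the library as a block. Benjamini-Hochberg adjustment ran over all genes of a contrast, with a threshold of 0.05. The contrasts share groups, and mice of a group shared a reaction. In the age and genotype contrasts p-values therefore measure the spread between 2 mice of 1 reaction. Those of the tissue fit measure the spread between mice of the difference within a mouse. Those of the eYFP fit measure the spread between libraries of the difference within a library. On simulated data, of 200 genes changed 2-fold (a log2 fold of 1) among 9408 in the vSVZ age comparison 43.5% were recovered with 1 false call, and 85% with 2 false calls among 9262 in the tissue comparison. The simulation gave all genes 1 common dispersion and added no effect of mouse or reaction, so its recovery and false calls need not hold for these data. Smaller changes were not simulated. DESeq2 1.42.0 and other alternatives are described in the closing section. Results that need items withheld from the text are not reported here. One sample whose group the labels do not give was not used. Gene positions are from GENCODE (GRCm38).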

Additional observations from a re-analysis of the deposited data

Results flagged for a closer look

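Of 49 groups examined, each of 4 libraries or 8 mice, 4 had one sample standing apart by Dixon's criterion, and about 1 in 20 groups does so by chance. Id2 in ensheathing glia-like cells stood low in WT young, at 70.3 CPM, against 146 to 157 in the other libraries. Id3 in the same class stood high in KO old, at 382, against 312 to 321, and came from mouse 2 at 503 rather than mouse 1 at 293. Bmpr1a in the Thbs4 and Ecel1 cluster stood high in WT old, at 108, in 67 cells. For Smad1 the log2 ratio of vSVZ over RoB stood high in mouse 1 of WT old, at 0.89.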

How the results depend on the processing

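Counts of members called changed as follows, and the cause was not tested. For age in WT in vSVZ quiescent cells, 2 members were called with no filter on low counts and with the Thbs4 and Ecel1 cluster in the class, and 0 at a hashtag posterior of at least 0.95 or without the class's cluster richest in eYFP. All genes called there numbered 117 by DESeq2, 97 at the stricter posterior, 169 without the eYFP-rich cluster, 1544 with the Thbs4 and Ecel1 cluster, and 89 to 498 (members 0 to 1) with 1 mouse left out. With that cluster genotype in young called 1 member (of 258 genes called), and the interaction 1 (of 92), as it did with no filter (of 58; 0 to 1 with 1 mouse left out).

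For age in KO in RoB quiescent cells 0 members were called by DESeq2, at the stricter posterior, without the Nkx6-2 cluster or with the Thbs4 and Ecel1 cluster. All genes there numbered 0 by DESeq2, 19 with no filter, 1 at the stricter posterior, 6 without the eYFP-rich cluster, 3 without the Nkx6-2 cluster, 23 with the Thbs4 and Ecel1 cluster and 5 to 15 with 1 mouse left out (members 0 to 1). Genotype in old called 1 member there, of 2 genes called, at the stricter posterior. In the Thbs4 and Ecel1 cluster age in KO called 1 member (of 64 genes) with no filter and 0 to 1 with 1 mouse left out, and age in WT 0 to 2.

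For age in KO in activated cells 0 members were called by DESeq2 and in the Nptx2 and Egfr cluster only, 1 (of 86 genes) with at least 10 cells per mouse, and 0 to 3 with 1 mouse left out. All genes numbered 22 by DESeq2, 182 with no filter, 40 in that cluster and 16 to 233 with 1 mouse left out. Genotype in young called 1 member with no filter (of 17 genes) or in that cluster (of 22), and 0 to 1 with 1 mouse left out. For age in WT in ensheathing glia-like cells 0 members were called with DESeq2 size factors and 2 with no filter, and all genes numbered 107 by DESeq2, 430 with no filter and 0 to 261 with 1 mouse left out (members 0 to 1). Genotype in young and the interaction there called 1 member each (of 188 and 70 genes) with no filter. With 1 mouse left out these contrasts, genotype in old there and genotype in young microglia-like cells called 0 to 1 member. Estimates that changed sign with 1 mouse left out were those of Id2, genotype in young, microglia-like (from -1.75 to 0.021) and of Id3, genotype in old, olfactory ensheathing glia-like (from -0.092 to 0.70). A fit that leaves 1 mouse in a group takes it to vary like the other groups.

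For the tissues, without the replicate block for the mouse 635 genes and the same 4 members were called, so that the pairing changed no call of a member. Without the Igfbp2 and Islr clusters 290 genes and 1 member were called, and without the Nkx6-2 cluster as well 97 genes and 0 members, and the sign changed for Id2 (-0.00996 and -0.000112) and Id3 (-0.14, in the latter). For eYFP with the Thbs4 and Ecel1 cluster, 2 members were called with no filter (of 1982 genes), 4 with at least 2 eYFP UMIs (2168 genes) and 2 in vSVZ cells only (1013 genes), and 0 to 3 (292 to 2208 genes) with 1 library left out. No other paired analysis was possible because age and genotype groups hold different mice, whose hashtag numbers are only names.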
